A study of Mus musculus with 7 samples.

Results

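Conventional CD4 T cells were picked out of 7 single-cell libraries of NSCG brain tumours, and 507 of 51795 kept barcodes (0.979%) met the rule. A barcode was kept if it held 1000 or more UMIs (unique molecular identifiers, each 1 captured transcript), 500 or more genes and no more than 15% of UMIs from mitochondrial genes. A kept barcode was counted as a conventional CD4 T cell with at least 2 UMIs of Cd3d, Cd3e and Cd3g together, at least 1 UMI of Cd4, none of Foxp3, none of Cd8a and Cd8b1, and at most 1 of C1qa, C1qb and C1qc together. The cells were thus chosen by their UMIs of these genes, which are not results here. The rule has thresholds that many cells stood close to: 172 of the 507 cells held exactly 1 Cd4 UMI, 24 held exactly 2 CD3 UMIs and 134 held 1 complement C1q UMI. Just outside it, 24 barcodes met every other condition with 1 CD3 UMI and 61 with 2 or more C1q UMIs. Among genes the rule did not use, Trac or a Trbc constant gene of the alpha beta T cell receptor was detected in 503 of the 507 cells. CD8 and regulatory T cells carry these genes too, so they check only that the cells are T cells.

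CD4 T cells read antigen on MHC class II and act mostly by helping other cells. A naive or recirculating cell carries Ccr7 and S1pr1, receptors that take it through lymph nodes, with the transcription factors Lef1, Tcf7 and Klf2. After activation it can take a helper state: Th1 cells use the transcription factor Tbx21 and make interferon gamma (Ifng), Th2 cells use Gata3 and make Il4, Il5 and Il13, Th17 cells make Il17a and Il17f, and follicular helper (Tfh) cells use Bcl6, Cxcr5 and Il21. Help is delivered through CD40 ligand (Cd40lg) and cytokines, and inhibitory receptors such as Pdcd1, Ctla4 and Lag3 dampen the cells. Regulatory T cells are a separate CD4 lineage driven by Foxp3, and were kept out by the rule.

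The tumours were grown in the brains of C57BL/6 wild-type mice of 7 to 10 weeks from a line called NSCG-mCherry, which carries EGFRvIII and lacks Arf/Ink4a, and were collected at about day 14. Each library pooled at least 2 mice, aimed at 6000 cells and is 1 sample. The UT group (untreated) has 1 library. The IgG group has 2 libraries from mice given the control antibody IgG2b at 10 mg/kg. The BP group has 2 libraries from mice treated with 5 mg/kg of the VEGF-blocking antibody B20 and 10 mg/kg of a PD-L1 antibody. The BPI group has 1 library with the same antibodies and the PI3K inhibitor IPI-145 at 10 mg/kg by gavage. The antibodies of these groups were given every 3 days from day 6 or 7, for 3 rounds. The CD40 group has 1 library from mice given 2 doses of 100 µg of an agonistic CD40 antibody 5 days apart, and a vaccine of dendritic cells may or may not have been given as well, going by the labels. The sources used here give no sex of the hosts.

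The libraries were very unequal in these cells. The UT library held 111, the IgG libraries 5 and 17, the BP libraries 304 and 26, the BPI library 29 and the CD40 library 15. UT and BP replicate 1 thus supplied 415 of the 507 cells (81.9%). Total UMIs over all listed barcodes ran from 68997476 to 186793886 per library, and the median CD4 T cell held between 2032 UMIs (BPI) and 7069 UMIs (BP replicate 1). Any pair of libraries without UT shared between 10 and 26 cell barcodes, and UT shared between 0 and 3 with each of the others. The Scrublet doublet scores marked 48 of the 507 cells (9.47%), 32 of them in BP replicate 1, 7 in UT, 5 in IgG replicate 2, 2 in BPI and 1 in each of IgG replicate 1 and BP replicate 2. In IgG replicate 2 the 5 marked cells held 139515 of the 185885 UMIs (75.1%) and every one of its 221 UMIs of the tumour marker list. For this reason the levels below are those of the 459 unmarked cells unless stated, which number 104 in UT, 4 and 12 in IgG, 272 and 25 in BP, 27 in BPI and 15 in CD40. Levels are in CPM, the UMIs of a gene as parts per 1000000 of all UMIs of the unmarked cells of 1 library, and all intervals are exact at 95% and cover counting error only. In IgG replicate 1, 1 UMI is 95.7 CPM and 3 UMIs are 287 CPM. A value of 0 or 95.7 CPM there says little about its order among the libraries.

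Marker lists of other cells were below those of T cells in the unmarked cells, but not absent. The list of T cell genes not used by the rule summed to between 4496 and 7876 CPM over the libraries, and all 459 cells carried at least 2 of its UMIs. Gamma delta receptor genes summed to between 0 and 42.3 CPM, natural killer genes to between 0 and 383 CPM, myeloid genes to between 0 and 251 CPM, B cell genes to between 0 and 116 CPM, tumour genes to between 0 and 92.3 CPM and endothelial genes to between 43.1 and 180 CPM. The 383 CPM of natural killer genes was 4 UMIs in IgG replicate 1. At least 2 natural killer UMIs were found in 27 of the 459 cells, 12 of them in UT and 12 in BP replicate 1. For gamma delta genes it was 15 cells, 8 of them in UT. For B cell genes it was 11 cells, among them 3 of the 15 cells of CD40. At least 2 endothelial UMIs were found in 75 of the 459 cells. In both IgG libraries, BP replicate 2 and CD40 the endothelial UMIs were of Pecam1 alone, which T cells can also carry, with Cldn5, Flt1, Kdr and Cdh5 at 0. The highest sum (CD40, 17 UMIs) was among these. BP replicate 1 held 59 of the 75 cells, and 4 of the 5 endothelial genes had UMIs there. In UT, with 8 of the 75 cells, and BPI, with 2, 2 of the 5 genes had UMIs. Tumour genes were highest in UT (92.3 CPM) and BP replicate 1 (51.6 CPM) and at most 21.1 CPM in the others. At least 2 myeloid UMIs were found in 45.2% of cells in UT and 33.8% in BP replicate 1, whose cells are deeper, and in at most 8.33% elsewhere. In CPM the myeloid list was highest in BP replicate 2 (251 CPM), with 226 CPM in UT and 162 CPM in BP replicate 1. The part of these markers in the results below was not tested. The libraries also fell into sets that the treatment does not name. Cdk8 stood at 28.2 CPM in UT and 147 CPM in BP replicate 1, against 5100 CPM in BP replicate 2 and between 5053 and 7748 CPM in the IgG, BPI and CD40 libraries. CD8 T cells of the same libraries showed the same split, with Cdk8 at 23.4 and 153 CPM in UT and BP replicate 1 and between 4335 and 5309 CPM in the other 5. Xist, made by the inactive X chromosome, was at 0 in the CD4 T cells of UT. UT and BP replicate 1, the libraries rich in CD4 T cells, are therefore also those that stand apart in Cdk8, and the part of that split in any result below was not tested.

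Conventional CD4 T cells made up a larger share of the kept barcodes in both BP libraries than in either IgG library, and the share in UT lay between the BP libraries. They were 1.97% of barcodes in UT (interval 1.63 to 2.37%), 0.0799% and 0.212% in IgG, 2.88% and 0.433% in BP, 0.412% in BPI and 0.180% in CD40. The mean was 1.66% ± 1.73 (SD, n = 2) in BP and 0.146% ± 0.0936 (SD, n = 2) in IgG. The groups did not overlap, and the exact two-sided permutation p was 0.333, which is the smallest that 2 against 2 libraries can give. Without BP replicate 1 the difference fell from 1.51 to 0.287 percentage points.

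Within the T cells the order was different. CD4 T cells were 38.1% of the CD3-positive barcodes in UT (interval 32.5 to 44.0%), 11.6% and 27.0% in IgG, 23.0% and 11.3% in BP, 4.63% in BPI (interval 3.12 to 6.59%) and 9.80% in CD40 (interval 5.59 to 15.7%). BP (17.2% ± 8.30, SD, n = 2) and IgG (19.3% ± 10.9, SD, n = 2) overlapped, with an exact permutation p of 0.667. The sign of this difference turned from -2.13 to 1.42 percentage points without the marked cells. The ratio of CD4 to CD8 T cells was 1.91 in UT, 0.417 and 1.13 in IgG, 0.619 and 0.210 in BP, 0.0767 in BPI and 0.250 in CD40. UT was the library with the highest ratio, with 111 CD4 against 58 CD8 T cells, and BPI the lowest, with 29 against 378. Of CD4 and CD8 T cells together, CD4 T cells were 65.7% in UT (interval 58.0 to 72.8%) and 7.13% in BPI (interval 4.82 to 10.1%). The UT interval overlapped that of IgG replicate 2 (34.7 to 70.9%) and of no other library, and the BPI interval overlapped none. UT and BPI are 1 library each, and these shares were not tested for them.

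**Figure D1:**
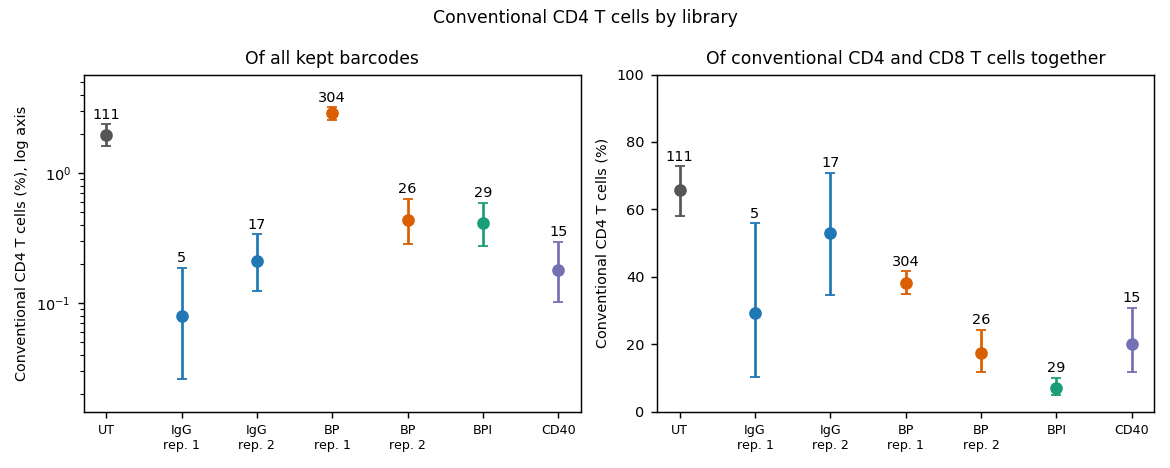
Conventional CD4 T cells of each library as a share of kept barcodes (left, percent, log axis) and of CD4 and CD8 T cells together (right, percent), with exact 95% intervals and the number of CD4 T cells above each point. BP replicate 1 (2.88%) and UT (1.97%) are highest on the left, and UT (65.7%) is highest and BPI (7.13%) lowest on the right.

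Genes of naive and recirculating cells were lowest in UT and highest in IgG replicate 2. Lef1 (ENSMUSG00000027985, GRCm38 chromosome 3, 131110471 to 131224356), a transcription factor of naive T cells, stood at 44.9 CPM in UT, 95.7 and 906 CPM in IgG, 170 and 83.6 CPM in BP, 118 CPM in BPI and 433 CPM in CD40. In value BP replicate 1, BPI and CD40 lay between the IgG libraries, and UT and BP replicate 2 below them. The lower of the IgG values, in IgG replicate 1, is 1 UMI, so the order against it says little. Tcf7, which keeps T cells able to renew, was at 29.5 CPM in UT, 95.7 and 345 CPM in IgG, 73.3 and 167 CPM in BP, 186 CPM in BPI and 233 CPM in CD40. S1pr1, the receptor that lets T cells leave tissue, was at 5.13 CPM in UT and 20.4 CPM in BP replicate 1, and between 67.5 and 388 CPM in the other 5 libraries. The 2 libraries with low S1pr1 are the 2 with low Cdk8. Klf2, which drives S1pr1, had the same order of sets, at 33.3 and 34.8 CPM in UT and BP replicate 1 and between 186 and 431 CPM elsewhere. Over the list of 10 naive and recirculation genes, the summed level was 391 CPM in UT (interval 348 to 437) and 3817 CPM in IgG replicate 2, with the other 5 libraries between 1340 and 1776 CPM.

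The Th1 program was the most common of the helper programs. A UMI of Tbx21, Cxcr3 or Ifng was found in 84 of 104 cells in UT (80.8%, interval 71.9 to 87.8%), 2 of 4 and 4 of 12 in IgG, 174 of 272 (64.0%, interval 58.0 to 69.7%) and 15 of 25 (60.0%) in BP, 11 of 27 (40.7%) in BPI and 4 of 15 (26.7%) in CD40. The cells of UT and BP replicate 1 also held more UMIs per cell than those of any other library. Thinned to 1000 UMIs per cell, the shares were 39.4% in UT, 25% in each IgG library, 27.9% and 28% in BP, 33.3% in BPI and 6.67% in CD40, against a background of at most 0.337%. The background is the share of CD3-negative, Ptprc-negative barcodes with such a UMI after the same thinning. The CD40 value is 1 cell of 15. After thinning, the share of CD8 T cells with the same genes was below that of CD4 T cells in UT (36%) and in both IgG libraries (0 and 14.3%), and above it in BP (28.5% and 34.5%), BPI (38.4%) and CD40 (12%).

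Ifng (ENSMUSG00000055170, GRCm38 chromosome 10, 118441046 to 118445892) was at 342 CPM in UT, 95.7 and 86.3 CPM in IgG, 551 and 488 CPM in BP, 219 CPM in BPI and 31.7 CPM in CD40. It was detected in 56 cells of UT, 1 and 3 of IgG, 75 and 10 of BP, 5 of BPI and 1 of CD40. In value both BP libraries were above both IgG libraries, and CD40 was the lowest. The low values rest on 1 UMI in IgG replicate 1, 4 in IgG replicate 2 and 3 in CD40, so their order says little. In BP replicate 1, however, 1 cell held 47.2% of the Ifng UMIs and 2 cells held 80.5%. Without these 2 cells the level there was 110 CPM. Trimmed of their top 2 cells in the same way, BP replicate 2 was at 288 CPM and UT at 283 CPM. IgG replicate 2, with 4 Ifng UMIs in all, was then at 28.8 CPM, and IgG replicate 1, with 1 UMI, was not trimmed. Tbx21, the Th1 transcription factor, was at 206 CPM in UT, 0 and 173 CPM in IgG, 161 and 97.5 CPM in BP, 152 CPM in BPI and 0 in CD40. Cxcr6, a receptor of T cells that stay in tissue, was highest in UT at 651 CPM, and at most 412 CPM elsewhere. Ccl5, a chemokine of effector T cells, was at 308 CPM in UT, 80.1 CPM in BP replicate 1, 4018 and 108 CPM in IgG, 655 CPM in BP replicate 2, 2870 CPM in BPI and 3034 CPM in CD40. In the Th1 list as a whole the summed level was lowest in IgG replicate 2, at 1359 CPM, and lay between 2930 and 5739 CPM in the other 6 libraries. Ccl5 alone made up most of the sum in IgG replicate 1 (4018 of 5739 CPM), BPI (2870 of 5285 CPM) and CD40 (3034 of 4979 CPM). In UT it was 308 of 4537 CPM, so the order of these libraries in the sum rests on Ccl5. The medians below include Ccl5 as well. A few cells carried several of these sums: 3 cells held 54.6% of the list's UMIs in BPI and 58.0% in CD40, and without them the sums were 2588 CPM and 2487 CPM. The median cell held 54.0 Th1 list UMIs per 10000 in UT, 57.5 and 2.97 in IgG, 22.7 and 25.2 in BP, 18.9 in BPI and 23.2 in CD40.

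**Figure D2:**
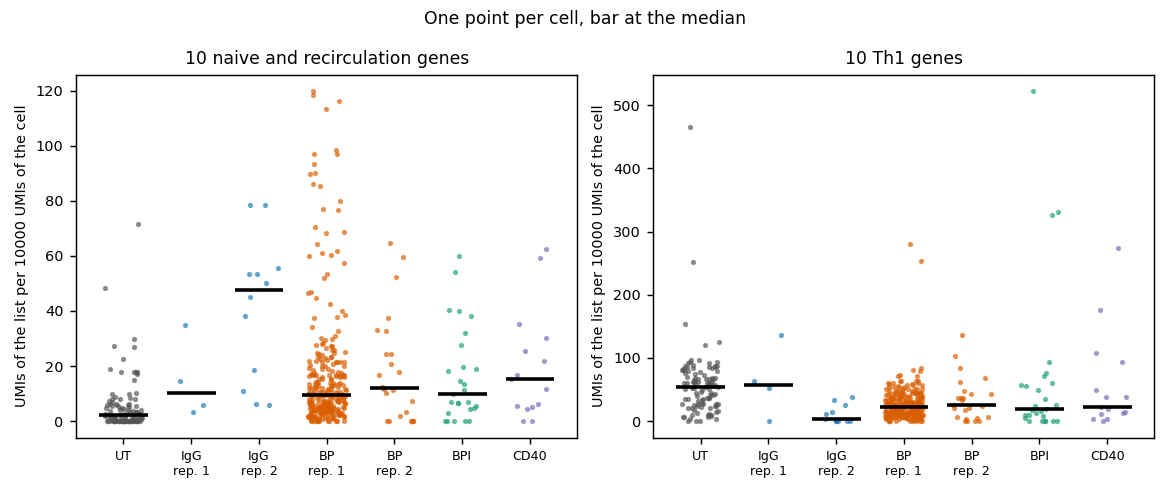
UMIs of the 10 naive and recirculation genes (left) and the 10 Th1 genes (right) per 10000 UMIs of a cell, with 1 point per unmarked cell and a bar at the library's median. The naive median runs from 2.19 in UT to 47.5 in IgG replicate 2, and the Th1 median from 2.97 in IgG replicate 2 to 57.5 in IgG replicate 1, which has 4 cells, and 54.0 in UT. The Th1 genes include Ccl5, which made up most of their summed level in IgG replicate 1, BPI and CD40.

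Th2 cytokines were detected in BP replicate 1 and, in few cells, in UT. A UMI of Il4, Il5 or Il13 was present in 70 of its 272 cells (25.7%, interval 20.6 to 31.4%) and in 3 of 104 cells of UT (2.88%), and in no unmarked cell of the other 5 libraries. These zeros rest on few cells with fewer UMIs: 0 of 25 cells in BP replicate 2 allows up to 13.7% of cells with a UMI at that depth, and 0 of 27 in BPI up to 12.8%, which says nothing of cells expressing the genes. Thinned to 1000 UMIs per cell the share in BP replicate 1 was 8.82%, which lies under both limits, against 0 in its CD8 T cells, 0 in its regulatory T cells and 0.198% in background barcodes. Il4 (chromosome 11, 53602982 to 53618669) was at 89.6 CPM in BP replicate 1, spread over 48 cells, and at 14.1 CPM in UT, in 2 cells. Il13, its neighbour (chromosome 11, 53631324 to 53634702), was at 76.9 CPM over 41 cells in BP replicate 1 and at 2.56 CPM in 1 cell of UT. Il5 was at 40.3 CPM in BP replicate 1, but 88.8% of it came from 1 of 7 cells. Of the 70 cells with a Th2 cytokine UMI, 54 also held a UMI of the Th1 set. Gata3, the Th2 transcription factor, did not follow this split: it was at 78.2 CPM in UT, 0 and 64.7 CPM in IgG, 148 and 27.9 CPM in BP, 135 CPM in BPI and 106 CPM in CD40.

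Th17 cytokines were rare. Il17f was at 13.6 CPM in BP replicate 1, in 3 cells, and at 1.28 CPM in 1 cell of UT, and Il17a at 2.26 CPM in 3 cells of BP replicate 1. Neither was detected in the other 5 libraries. Rora, a transcription factor of Th17 cells that other T cells share, was at 164 CPM in UT, 191 and 302 CPM in IgG, 538 and 474 CPM in BP, 422 CPM in BPI and 645 CPM in CD40. The Tfh set (Cxcr5, Il21, Bcl6) was found in 86 of 272 cells of BP replicate 1 (31.6%) and 13 of 104 of UT (12.5%), and after thinning in 8.46% and 4.81% of cells, against 1.35% and 0.921% in the background. At that equal depth the share was 12% in BP replicate 2, 7.41% in BPI, 6.67% in CD40 and 0 in IgG, so BP replicate 1 was not the highest. At full depth it was found in 4 of 25 cells in BP replicate 2, 2 of 27 in BPI, 2 of 15 in CD40, 1 of 12 in IgG replicate 2 and none of 4 in IgG replicate 1. Il21, the Tfh cytokine, was detected only in UT (4 cells) and BP replicate 1 (16 cells), and 1 cell held 54.9% of the latter's UMIs.

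Among genes of help and costimulation, Cd40lg and Icos overlapped between IgG and BP, whereas Tnfsf8, Tnfrsf4 and Tnfrsf9 were low or at 0 in IgG. Cd40lg (ENSMUSG00000031132, chromosome X, 57212143 to 57224042), the ligand that activates dendritic cells and B cells, was at 76.9 CPM in UT, 0 and 151 CPM in IgG, 81.0 and 223 CPM in BP, 67.5 CPM in BPI and 116 CPM in CD40. It was detected in 40, 0, 4, 87, 10, 3 and 4 cells in the same order. The IgG libraries held both the lowest value and the second highest. The lowest was the 0 of IgG replicate 1, where 3 UMIs are 287 CPM. Icos, a costimulatory receptor, was at 370 CPM in UT, 95.7 and 604 CPM in IgG, 590 and 669 CPM in BP, 490 CPM in BPI and 412 CPM in CD40. Tnfsf8, the ligand of CD30, was at 133 CPM in UT, 0 and 21.6 CPM in IgG, 666 and 293 CPM in BP, 169 CPM in BPI and 31.7 CPM in CD40. Tnfrsf4 (OX40) was at 383 CPM in UT, 0 and 43.1 CPM in IgG, 557 and 307 CPM in BP, 287 CPM in BPI and 21.1 CPM in CD40. Tnfsf8 and Tnfrsf4 were thus low in IgG and CD40 and higher in UT, BP and BPI. Tnfrsf9 (4-1BB; chromosome 4, 150914562 to 150946102), induced by antigen receptor signals, was at 524 CPM in UT and undetected in IgG, and stood at 679 and 111 CPM in BP, 304 CPM in BPI and 31.7 CPM in CD40. For Tnfrsf9, 2 cells held 83.3% of the UMIs in BPI (57.3 CPM without them) and 62.5% in BP replicate 2 (47.0 CPM without them).

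Helper cytokine and chemokine genes were highest, as a summed list, in UT and BP replicate 1. Ccl1, a chemokine made by activated T cells, was at 540 CPM in UT (24 cells) and 929 CPM in BP replicate 1 (64 cells), and at 0 in the other 5 libraries. Penk, the gene of the opioid peptide enkephalin, was at 218 CPM in UT and 259 CPM in BP replicate 1 and at 0 elsewhere. Ccl4 was at 1186 CPM in UT and 777 CPM in BP replicate 1, where 1 cell held 57.9% of it, against 181 CPM in BP replicate 2, 50.6 CPM in BPI, 10.6 CPM in CD40 and 0 in IgG. Il2, the T cell growth factor, was at most 38.5 CPM in any library. Il10, an inhibitory cytokine, was at 34.6 CPM in UT, 95.7 CPM and 0 in IgG, 46.1 CPM and 0 in BP, 101 CPM in BPI and 52.9 CPM in CD40. All Il10 UMIs of BPI (6) and of CD40 (5) came from 1 cell each, and 2 cells held 74.1% of those of UT. Summed over the list of helper cytokines and chemokines, UT was at 4283 CPM and BP replicate 1 at 4301 CPM, and the other 5 libraries lay between 478 and 1839 CPM. A pair of cells held 38.2% of the list's UMIs in BP replicate 1, and the sum there without them was 2709 CPM.

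Inhibitory receptors were low in IgG. Pdcd1 (PD-1; chromosome 1, 94038305 to 94052553) was at 520 CPM in UT and undetected in IgG, and stood at 260 and 251 CPM in BP, 101 CPM in BPI and 31.7 CPM in CD40. Without the 2 cells with the most Pdcd1, BP replicate 2 was at 159 CPM and BPI at 35.5 CPM. Lag3 was at 355 CPM in UT and undetected in IgG, and stood at 259 and 41.8 CPM in BP, 16.9 CPM in BPI and 0 in CD40. Ctla4 was at 652 CPM in UT, 0 and 108 CPM in IgG, 640 and 780 CPM in BP, 388 CPM in BPI and 359 CPM in CD40. The list of 10 inhibitory receptors summed to 2083 CPM in UT, 383 CPM (interval 104 to 980) and 237 CPM (interval 118 to 424) in IgG, 1974 and 1909 CPM in BP, 1148 CPM in BPI and 1025 CPM in CD40. Both BP libraries were above both IgG libraries in this sum. Per cell, the median was 20.3 inhibitory receptor UMIs per 10000 in UT, 3.32 and 1.81 in IgG, 16.5 and 17.1 in BP, 4.47 in BPI and 5.65 in CD40.

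**Figure D3:**
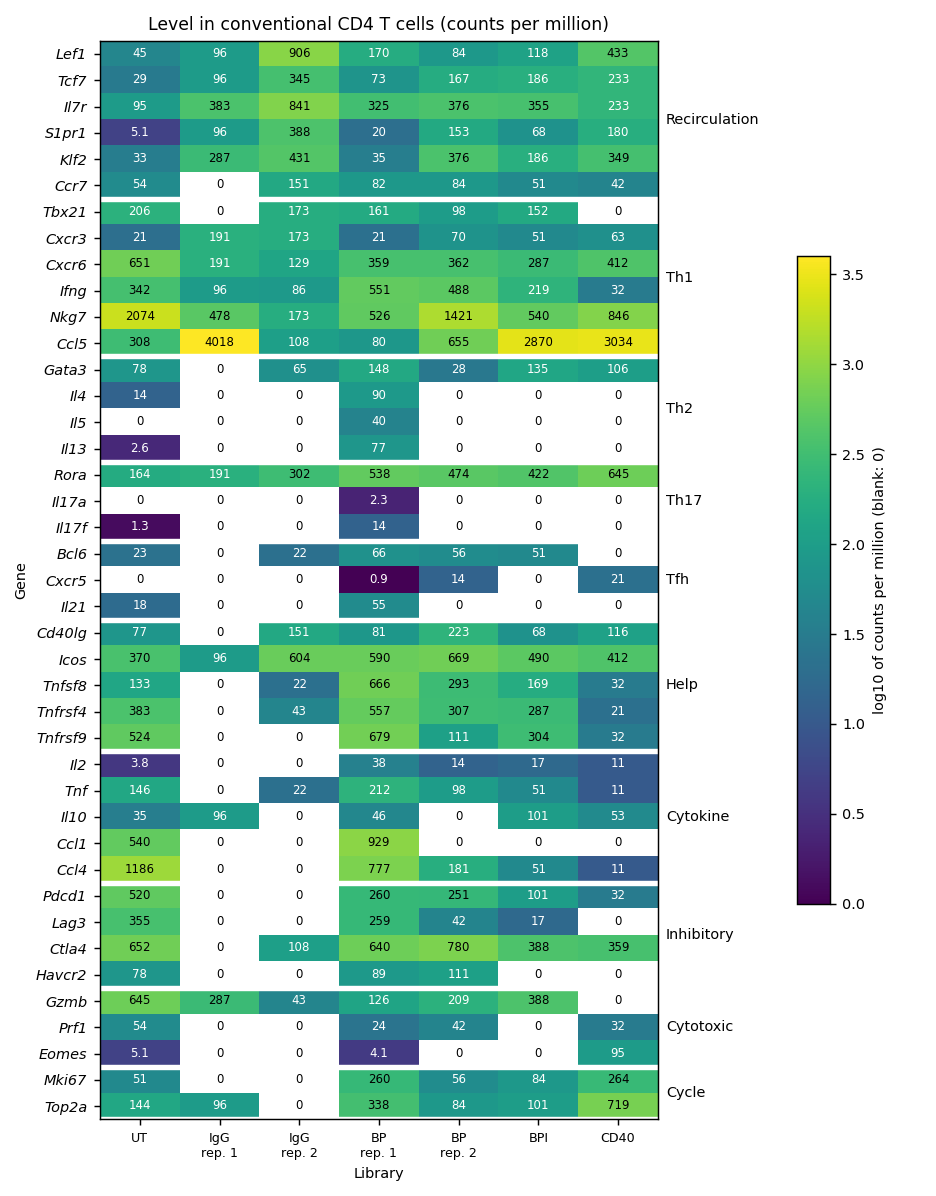
Level of list genes (rows, grouped by program) in the unmarked conventional CD4 T cells of each library (columns), with CPM printed in each cell and log10 CPM as the colour, blank at 0. Lef1 and S1pr1 are lowest in UT (44.9 and 5.13 CPM), and Il4 and Il13 are seen in UT and BP replicate 1 only.

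The comparison of BP with IgG asks what the antibodies against VEGF and PD-L1 did to the transcripts of these cells. With all 507 cells summed by library, 25 of 3008 genes tested passed an adjusted p of 0.05 (0.831%; edgeR quasi-likelihood test with Benjamini-Hochberg adjustment), 13 higher in BP (0.432%) and 12 lower (0.399%). None of the 12 lower genes met the conditions for naming a gene, and the 10 that did were all higher: Tnfrsf9, Rgs16, Pdcd1, Rnf157, Tnfsf8, Il2ra, Ctla4, Tnfrsf4, Ifitm1 and Ifng. Over all cells Ctla4 was at 0 and 26.9 CPM in IgG and at 518 and 689 CPM in BP, a log2 difference of 4.47 ± 0.87 (SE; edgeR adjusted p = 0.00454). Tnfrsf4 was at 0 and 16.1 CPM in IgG and 435 and 271 CPM in BP, a log2 difference of 4.42 ± 0.90 (edgeR adjusted p = 0.00588). Ifng was at 59.2 and 21.5 CPM in IgG and 404 and 431 CPM in BP, a log2 difference of 3.8 ± 0.83 (edgeR adjusted p = 0.00965). Marked cells held 75.1% of the UMIs of IgG replicate 2 and lowered its level of Ctla4, Tnfrsf4 and Ifng. In unmarked cells its Ifng was at 86.3 CPM, against 551 and 488 CPM in BP. The log2 differences over all cells are thus larger than the unmarked levels give. That the groups overlapped in none of these 3 genes is no result, since the conditions for naming a gene required it. For Ifng, 2 cells carried most of the UMIs of BP replicate 1, as given above. Tnfrsf9, Pdcd1 and Rgs16, the last an inhibitor of G protein signals, had no UMI in either IgG library, so their ratios are bounds. Against the floor of 3 counts over the unmarked IgG cells, which is 52.8 CPM, the BP mean was at least 7.48-fold higher for Tnfrsf9, 4.84-fold for Pdcd1 and 5.6-fold for Rgs16. By library the bound was 12.9 and 2.11 for Tnfrsf9 and 4.92 and 4.75 for Pdcd1.

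By list, 3 of 8 costimulation genes tested were higher in BP (Tnfsf8, Tnfrsf9, Tnfrsf4), as were 2 of 6 inhibitory receptors (Ctla4, Pdcd1), 3 of 6 genes of the regulatory list (Ctla4, Il2ra, Tnfrsf4), 3 of 8 helper cytokines and chemokines (Ifng, Ccl1, Ccl3) and 1 of 10 Th1 genes (Ifng). Ccl1 was at 744 CPM and 0 in BP and at 0 and 5.38 CPM in IgG over all cells, so its call rests on BP replicate 1 alone. None of these lists had a gene called lower. None of 7 naive and recirculation genes, 4 cytotoxic genes, 12 interferon response genes or 8 cell cycle genes passed the test in either direction, and with 0.831% of all genes called a count of 0 in lists of this size says little. These calls rest on little IgG material. Without the marked cells, IgG replicate 1 keeps 4 cells, under the minimum of 5, IgG is then 1 library of 12 cells, and 0 of 1839 genes (0%) passed in edgeR, with 200 at an unadjusted p under 0.05 and an adjusted p between 0.345 and 0.411 for the 10 named genes. A fit of the unmarked cells that admits IgG replicate 1 with its 4 cells, added after seeing the data, called 54. Of all cells, the count was 55 without IgG replicate 1, 12 without IgG replicate 2, 1 without BP replicate 1 and 0 without BP replicate 2, and with the UT and IgG libraries together as the control it was 0. DESeq2 called 2 genes.

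Untreated and IgG tumours both lack a drug against the tumour or its vessels. In UT against IgG, 80 of 3307 genes passed (2.42%; edgeR), 47 higher in UT (1.42%) and 33 lower (0.998%). Nkg7, a granule protein, was higher in UT by 4.26 on the log2 scale, Gzmb (granzyme B) by 4.10 and Ctla4 by 4.57. These differences are over all cells, where marked cells held 75.1% of the UMIs of IgG replicate 2. Its Ctla4 level was higher in the unmarked cells. Gzmb in the unmarked cells of UT and IgG replicate 1, given below, differed by less than 4.10. Tnfrsf9 and Pdcd1, at 0 in IgG, were at least 9.93-fold and 9.86-fold higher in the unmarked UT cells than the IgG floor, Ccl1 at least 10.2-fold, Rgs16 at least 7.58-fold and Lag3 at least 6.73-fold. UT was lower in Lef1 (log2 difference -2.88 ± 0.81, edgeR adjusted p = 0.0225) and S1pr1 (-4.41, edgeR adjusted p = 0.00573). By list, 3 of 4 cytotoxic genes, 3 of 6 inhibitory receptors, 6 of 9 helper cytokines and chemokines and 3 of 10 Th1 genes rose, and 2 of 7 naive and recirculation genes fell, with a median of -2.31 for the latter against -0.10 for all genes. Of 8 activation genes tested 1, Irf4, rose and none fell, and the list summed to 1764 CPM in UT against 1148 and 2502 CPM in IgG, and over all cells, marked ones included, to 1776.5 CPM against 1777 and 1560 CPM. Among the unmarked cells IgG replicate 1 has fewer than 5 cells and was dropped, so UT was set against IgG replicate 2 alone, 1 library against 1, with the spread taken from the BP libraries. That fit called 78 of 2332 genes (3.34%; 41 higher, 1.76%, and 37 lower, 1.59%), 32 of them shared with the 80. A fit of the unmarked cells that keeps both IgG libraries, added after seeing the data, called 63 of 2265, 37 higher and 26 lower.

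UT is 1 library and differs from IgG in more than treatment. Xist, Cdk8 (-6.91) and Camk1d (-3.69) were also among the named lower genes. Xist was at 0 in UT and present in every other library, and the Y-linked Eif2s3y was at 70.5 CPM in UT, at 0.452 CPM in BP replicate 1 and at 0 in the others. Ddx3y, also Y-linked, was highest in UT but had UMIs in BP replicate 1, BPI and CD40 too. UT also shared between 0 and 3 cell barcodes with each other library, whereas pairs of the other 6 shared between 10 and 26. The labels name the same 10x chemistry for all libraries, and whether UT used another barcode list is not stated. Treatment, host sex, a possible difference in barcode list and library cannot be told apart here. The count fell to 48 without IgG replicate 1, to 32 without BP replicate 1, to 29 without BP replicate 2, and to 0 without IgG replicate 2. The BP libraries enter through the shared estimate of the spread and the filter on low counts.

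The BPI group adds the PI3K inhibitor to the BP antibodies. No gene passed an adjusted p of 0.05 in edgeR for BPI against IgG (0 of 3008, 0%, 162 at an unadjusted p under 0.05, 1 in DESeq2) or for BPI against BP (0 of 3008, 0%, 67 unadjusted, 0 in DESeq2). The 29 BPI cells had a median of 2032 UMIs, so changes of the size seen elsewhere could be missed. In values, BPI lay near BP replicate 2 in Tnfrsf4 (287 and 307 CPM), below both BP libraries in Ifng (219 CPM) and Pdcd1 (101 CPM), and above all libraries in Ikzf2 (827 CPM), a transcription factor of regulatory T cells. Ikzf2 was at 243 and 293 CPM in BP, and the difference of BPI from IgG had an edgeR adjusted p of 0.0632. A UMI of Il2ra or Ikzf2 was found in 9 of 27 unmarked BPI cells. The median cell held 4.94 UMIs of the regulatory list per 10000 in BPI, where 11 cells had none, against 18.9 and 18.5 in BP. In the CD8 T cells of BPI Ifng stood at 2172 CPM, the highest of any library.

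In CD40 against IgG no gene passed either (0 of 3008, 0%, edgeR; 227 at an unadjusted p under 0.05, 0 in DESeq2). Ifng was lowest in CD40 (31.7 CPM), as 3 UMIs of 1 cell. Among libraries with a UMI of each, CD40 was also the lowest in Isg15 (63.4 CPM) and Tnfrsf4. It had no UMI of Gzmb, which every other library had, and none of Tbx21, which was also at 0 in IgG replicate 1. Its Lef1 (433 CPM) was second to IgG replicate 2. Eomes, a transcription factor of cytotoxic and memory cells, was at 95.1 CPM in CD40 and at most 5.13 CPM elsewhere. Its Top2a level of 719 CPM came to 69.1% from 1 cell. Without IgG replicate 2 the count of called genes was 25.

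Against CD8 T cells of the same tumours, conventional CD4 T cells were higher in 7 of 9 genes tested of the costimulation and help list, with 1 lower, and in 3 of 7 of the regulatory list (Ctla4, Tnfrsf4 and Tnfrsf18), with none lower. The fit kept the library as a block over 7 libraries. Of 7978 genes tested, 193 passed (2.42%; edgeR), 135 higher in CD4 T cells (1.69%) and 58 lower (0.727%). The genes of the rule were left out of what is named. Maf (ENSMUSG00000055435, chromosome 8, 115682942 to 115707794), a transcription factor of Il10- and Il21-making helper cells, was at 149, 191, 367, 393, 307, 219 and 254 CPM in the CD4 T cells of UT, IgG, BP, BPI and CD40 in that order of libraries, and at most 41.3 CPM in any CD8 sample. Its log2 difference was 3.97 ± 0.29 (SE; edgeR adjusted p = 4.46e-10). Cd40lg was at most 10.8 CPM in the CD8 T cells of 6 libraries and at 82.6 CPM in IgG replicate 2, and differed by 3.24 ± 0.45 (edgeR adjusted p = 3.81e-05). Maf and Cd40lg were higher in CD4 T cells in 7 of 7 libraries with all cells, which the rule for naming genes required. In the unmarked CD4 T cells of IgG replicate 1 Cd40lg was undetected. The TNF family genes Tnfsf8, Tnfsf11 (RANKL) and Tnfrsf4 were higher by 3.14, 3.43 and 3.27. The cytokines Il10 and Csf2 were higher by 4.39 and 3.05. Over all cells Csf2 was undetected in the CD4 T cells of IgG, BP replicate 2 and BPI. In unmarked CD4 T cells Il10 was undetected in IgG replicate 2 and BP replicate 2, and came from 1 cell each in BPI and CD40. Icos (1.37), Nrp1 (1.57), Rora (1.28), the glucocorticoid receptor Nr3c1 (1.26) and Il7r (1.15) were also higher, as were Il1rl1, the IL-33 receptor (2.76), Ccr4 (2.25) and Gata3 (1.11).

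Cytotoxic genes were the other side of this contrast. Gzma was lower in CD4 T cells by a log2 difference of -5.45, Prf1 (perforin) by -3.09, Gzmb by -3.05 and Eomes by -2.96. Gzmb stood at 4230 CPM in the CD8 T cells of UT against 645 CPM in its CD4 T cells, and at 2026 against 126 CPM in BP replicate 1. The exception was IgG replicate 1, where Gzmb was at 207 CPM in CD8 and 287 CPM in 4 CD4 T cells. By list, 8 of 10 cytotoxic genes were lower (median -3.00 against -0.06 over all genes tested), and the median of the costimulation genes, of which Cd27 was the lower one, was 1.37. All 3 Th2 genes and 4 of 6 Tfh genes tested were higher, and of 10 Th1 genes none was higher and 2 were lower. Ifng was not called. Without a block for the library 15 genes passed, without the marked cells, which drops IgG replicate 1, 318 (4.39%; 2.51% higher and 1.88% lower), with DESeq2 124, without UT 68 and without BP replicate 1 71. Of the 193 genes, 173 were also among the 318.

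Against regulatory T cells the same cells were higher in 7 of 9 Th1 genes tested and lower in 6 of 8 regulatory genes. The fit held the 5 libraries with at least 5 cells of both kinds. Of 3295 genes, 102 passed (3.10%; edgeR), 70 higher in conventional CD4 T cells (2.12%) and 32 lower (0.971%). Ifng was higher by 3.55 ± 0.40 (SE; edgeR adjusted p = 0.00112), being at 60.2 CPM in the regulatory T cells of UT and 42.6 CPM in those of BP replicate 1 and at 0 in the rest. Tnfsf8 was higher by 3.75 ± 0.48 (edgeR adjusted p = 0.00128) and Cd40lg by 3.73 ± 0.60 (edgeR adjusted p = 0.00402). Tcf7 (2.92), Ccl5 (2.51), Fasl (2.36), Il12rb2, the IL-12 receptor chain of Th1 cells (2.00), Cxcr6 (1.83) and Pdcd1 (1.70) were higher as well. Lower were Itgae (-3.30), the integrin CD103, Ikzf2 (-2.98), Il2ra (-2.05), Tnfrsf4 (-1.78), Tnfrsf9 (-1.50) and Ctla4 (-1.10). Maf, which marked CD4 against CD8 T cells, was not called against regulatory T cells (-0.95 ± 0.26, edgeR adjusted p = 0.061). The median was 1.41 over the Th1 genes and -1.49 over the regulatory genes, against 0.01 over all genes. Without the marked cells 130 genes passed (4.73%; 72 higher, 2.62%, and 58 lower, 2.11%), 94 of them shared with the 102. The count was 2 without a library block, 40 without UT and 46 without BP replicate 1, and 183 with a minimum of 2 Cd4 UMIs, which drops BPI.

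**Figure D4:**
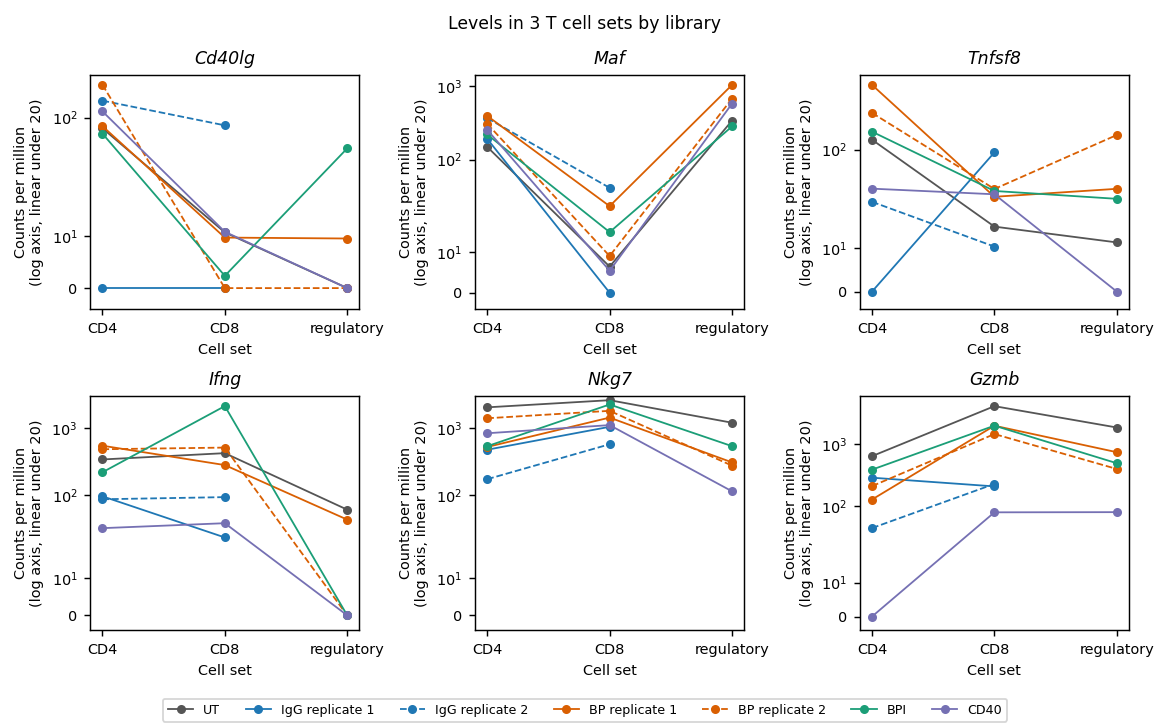
CPM (log axis, linear under 20) of 6 genes in the unmarked conventional CD4, CD8 and regulatory T cells, with 1 line per library and regulatory T cells shown for 5 libraries. Maf is higher in CD4 than in CD8 T cells in all 7 libraries, Gzmb is higher in CD8 than in CD4 T cells in all but IgG replicate 1 (287 and 207 CPM), and Ifng is lowest in regulatory T cells in each of the 5 libraries.

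**Figure D5:**
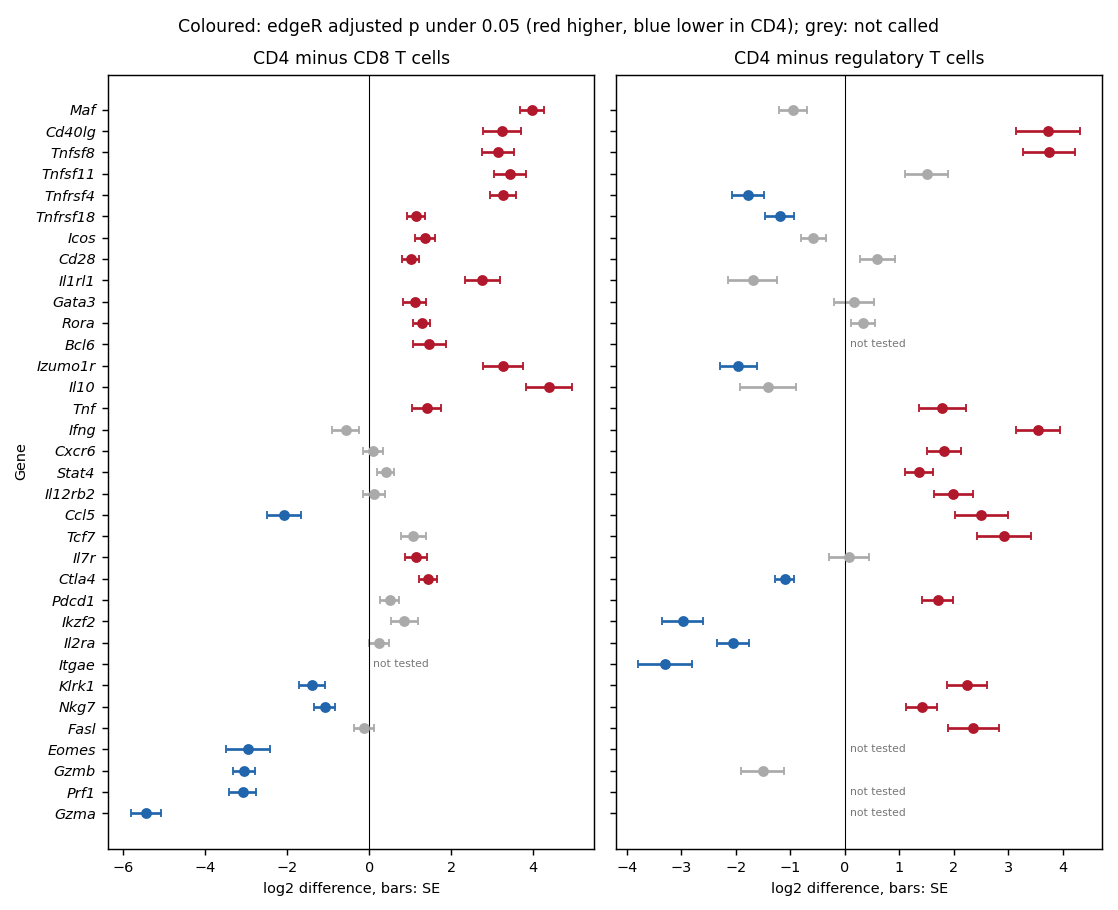
Log2 difference (x axis, bars are SE) of list genes in conventional CD4 T cells minus CD8 T cells (left) and minus regulatory T cells (right), with all cells summed by library. Genes that passed an edgeR adjusted p of 0.05 are red where higher and blue where lower in CD4 T cells: Maf (3.97) and Cd40lg (3.24) lie above and Gzma (-5.45) below CD8 T cells, and Ifng (3.55) lies above and Ikzf2 (-2.98) below regulatory T cells.

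Because a Foxp3 transcript can be missed, the cells were also split by Il2ra and Ikzf2, genes of regulatory T cells that activated cells share. A UMI of either was found in 54 of 104 cells in UT, 0 of 4 and 1 of 12 in IgG, 184 of 272 and 11 of 25 in BP, 9 of 27 in BPI and 2 of 15 in CD40. After thinning it was found in 30.9% of the CD4 T cells of BP replicate 1, 23.5% of its CD8 T cells and 91.1% of its regulatory T cells. In BP replicate 1 the 184 cells with Il2ra or Ikzf2 held more Ifng, at 700 CPM against 56.6 CPM in the 88 without. The 2 cells with the most Ifng held 82.4% of the Ifng UMIs of the 184, whose level without them was 126 CPM, and the level of the 88 without their top 2 was 33.7 CPM. Il10 was at 59.5 against 1.95 CPM, and at 32.1 CPM in the 184 without the 2 cells that held 46.5% of it. The 88 cells without held more Tcf7, at 183 against 40.1 CPM, and more Il2, at 111 against 16.5 CPM. In UT Ifng was close in both, at 331 CPM with and 360 CPM without. The median cell with either gene was deeper, with 7324.5 against 5173 UMIs in BP replicate 1, and cells of 1 library are no replicates, so this split has no test.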

How the data were processed

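The deposited files hold UMI count matrices of 7 libraries with 32285 genes and between 713553 and 2310016 listed barcodes each, not limited to cells, made by the authors with Cell Ranger (version 7.0.1 and build mm10 per the submitters' processing notes). The software field of the file headers reads Cell Ranger 4, and whether that is the release that made the counts is not known. The authors' counts were used as deposited, and alignment settings beyond these are not given in the sources used here. The members and gene lists were chosen with earlier results of these data known.

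Counts were summed per library over the cells of each gate. Doublets were marked as the highest Scrublet scores, as run in scanpy 1.11.5, at 0.8% per 1000 kept barcodes. Sums of at least 5 cells were tested with edgeR 4.0.16 (quasi-likelihood, TMM, Benjamini-Hochberg over all genes tested), over the IgG, BP, BPI and CD40 libraries together for treatments (with UT added for UT against IgG) and with the library as a block against CD8 and regulatory T cells. DESeq2 1.42.0 was an alternative. The edgeR fits of BP against IgG and of CD4 against CD8 T cells were also run on simulated data. The outcome is not given here. The p-values measure the spread between libraries, each a pool of at least 2 mice; that the libraries of a group are separate experiments is not stated. BPI, CD40 and UT have 1 library each and are assumed to vary like the others. All genes of the 14 lists could be named, and beyond them, per comparison and direction, up to 10 genes with the largest change at an adjusted p under 0.05, the same direction in every library, a mean log2 CPM no lower than 5 and less than 10% of UMIs estimated to be free RNA, leaving out ribosomal, mitochondrial, receptor V and rule genes. Some genes of the lists are not reported here. Eif2s3y and Ddx3y were chosen after their values were seen. Shares were compared with an exact two-sided permutation test over libraries. Intervals are Clopper-Pearson for shares and exact Poisson for counts, at 95%. Gene positions are from GENCODE vM21 on GRCm38.

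Replicate numbers were not used to pair the samples in the main fits. Over 1000 genes the deviations of IgG and BP libraries with the same number correlated at -0.225, and those with crossed numbers, by construction, at 0.225. With 2 libraries per group, of very unequal cell number, this does not tell whether the samples were paired.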

Additional observations from a re-analysis of the deposited data

How the results depend on the processing

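The higher share of CD4 T cells among kept barcodes in BP than in IgG (1.51 percentage points) kept its direction in every alternative run. The difference was 0.524 with cells thinned to 1000 UMIs before the rule, and 0.287 to 2.74 with 1 library left out. Leaving 1 library out could not change the direction, since both BP libraries lay above both IgG libraries. The share among CD3-positive barcodes (-2.13) turned to 4.54 with at least 2 Cd4 UMIs, 1.42 without the marked cells and 0.658 with thinning, and ranged from -9.81 to 5.55 with 1 library left out, reversing without IgG replicate 2 and, at 3.74, without BP replicate 2. The CD4 to CD8 ratio (-0.361) turned to 0.0271 with at least 2 Cd4 UMIs. The cause was not tested.

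For BP against IgG (25 genes) the count was 2 with DESeq2, 246 with no filter on low counts, 0 without the marked cells, 42 with a term for the set of IgG replicate 1, BP replicate 2 and BPI, 0 with UT and IgG as the control, and 0 to 55 with 1 library left out. The fit with the replicate number as a block gave 0, and a block with crossed numbers, added after seeing the data, 29. Fitting the unmarked cells with a minimum of 4 cells, also added after seeing the data so that IgG replicate 1 stayed in, gave 54. Pdcd1 reversed to -0.054 (edgeR adjusted p = 0.998) with UT and IgG as the control. For BPI against IgG (0) the count was 1 with DESeq2, 3 with no filter, 1 without cells carrying Il2ra or Ikzf2, 1 with the set term, 2 with the minimum of 4, and 0 to 6 with 1 library left out. For CD40 against IgG (0) it was 4 with no filter, 9 with at least 2 Cd4 UMIs, 2 without Il2ra or Ikzf2, 16 with the set term, 5 with the minimum of 4 and 0 to 25 with 1 library left out. For BPI against BP (0) it was 2 without Il2ra or Ikzf2, 15 with a minimum of 20 cells, 7 with the minimum of 4 and 0 to 10 with 1 library left out. For UT against IgG (80) it was 12 with DESeq2, 190 with no filter, 42 without Il2ra or Ikzf2 and 0 to 48 with 1 library left out.

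Against CD8 T cells (193) the count was 124 with DESeq2, 361 with no filter, 318 without the marked cells and 68 to 269 with 1 library left out, and the fit with no replicate block, that is no library block, gave 15. Against regulatory T cells (102) it was 264 with no filter, 183 with at least 2 Cd4 UMIs, 203 of 3433 genes tested without Il2ra or Ikzf2 (carriers leave the conventional cells only, which by construction widens the contrast), 2 with no library block and 40 to 146 with 1 library left out. The rule for naming genes required the same direction in every library, so leaving 1 library out could hardly reverse a named gene. Of the 20 named genes of each comparison none reversed where it had a value. With no library block 17 had one against CD8 T cells, of which 10 lost the call, and 7 against regulatory T cells, of which 6 did. Without BP replicate 1 it was 18 (2 lost) and 16 (4 lost), and without UT 19 (2 lost) and 17 (5 lost). A minimum of 20 cells could be fitted only for BPI against BP, and at least 2 Cd4 UMIs left BPI with 4 cells and IgG replicate 1 with 0, so the BPI comparisons were not run there and IgG was IgG replicate 2 alone. Depth limits the IgG and BPI values most, since their cells are few and hold the fewest UMIs with those of BP replicate 2.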

Other observations

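Interferon response genes varied among the libraries, and the IgG libraries differed from each other. Their list summed to 4670 CPM in UT, 3922 and 1466 CPM in IgG, 2032 and 3456 CPM in BP, 4913 CPM in BPI and 930 CPM in CD40 over the unmarked cells. Isg15, a ubiquitin-like protein induced by interferon, was at 626 CPM in UT, 1339 and 302 CPM in IgG, 157 and 641 CPM in BP, 844 CPM in BPI and 63.4 CPM in CD40. CD40 was the lowest library in Isg15 and in the list, and the IgG libraries spanned most of the range. A single cell held 63.4% of the list's UMIs in IgG replicate 1 and 67.6% in IgG replicate 2. Without the top cell of each library IgG replicate 2 was at 543 CPM, below CD40 at 712 CPM, so the place of CD40 in the list depends on 1 cell. None of the 12 genes of the list was called between BP and IgG, where 0.831% of all genes tested were called, so a count of 0 among 12 says little.

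Pik3cd, the catalytic subunit of PI3K in leukocytes that IPI-145 binds, was at 101 CPM in UT, 383 and 108 CPM in IgG, 170 and 167 CPM in BP, 67.5 CPM in BPI and 95.1 CPM in CD40. The BPI value rests on 4 UMIs, and the difference of BPI from BP was not called by edgeR. Cd274, the gene of PD-L1, was at 47.4 CPM in UT, 0 and 43.1 CPM in IgG, 83.7 and 125 CPM in BP, 169 CPM in BPI and 42.3 CPM in CD40. Cd40, the target of the agonist, had at most 12 UMIs in any library and none in the CD40 library, and the receptor is mainly one of antigen-presenting cells.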
